A study of Mus musculus with 2 samples.

Results

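Caspase genes and the pore-forming gene Gsdmd were followed in mouse liver. The 8 genes are Casp1, Casp4 and Casp12 (inflammatory caspases), Casp2, Casp8 and Casp9 (initiators), Casp6 (an executioner) and Gsdmd (gasdermin D). They were taken by symbol from the 35275 genes of the deposited tables, all 8 were found, and all 8 were among the 12395 genes counted as expressed, those whose FPKM reached 1 in either library. They were chosen by family with their FPKM in these same libraries already known, so every value below is a description and no test is given.

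RNA came from liver of C57BL/6 mice 10 months old, with 1 wild-type animal and 1 animal labelled LTsc1KO, whose genotype field reads TSC1-/-. The series describes this knockout as specific to the liver, but which liver cells lost Tsc1, how the gene was deleted and the animals' sex are not stated by the labels. The model is described as a liver cancer that arises without inflammation from constant mTORC1 activity. That description was not tested here. The series speaks of tumours while both samples are labelled liver, and whether the knockout sample was a nodule is not given. FPKM are reads scaled by transcript length and library total, as deposited. Recovered totals were 27919645 reads for the wild-type-labelled library and 29351163 for the LTsc1KO-labelled library. Neither genotype has a replicate, so differences between genotypes and between animals cannot be told apart. Intervals are 95% and cover counting error only.

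Caspases are cysteine proteases that cut their targets after aspartate and are made as inactive precursors. The inflammatory caspases Casp1 and Casp4 are switched on in inflammasomes or by bacterial lipopolysaccharide in the cytosol. They cut gasdermin D, whose freed amino-terminal part forms pores in the plasma membrane, and the cell dies by pyroptosis. Initiator caspases are activated on platforms such as the apoptosome, and pass the signal to executioners that dismantle the cell in apoptosis. Hepatocytes are known for their sensitivity to death receptors that act through Casp8. Because caspases are held in check as proteins, a transcript level says nothing of how much enzyme was active.

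Tsc1 itself did not check the labels. Its FPKM was 4.90 in the wild-type-labelled library and 4.79 in the LTsc1KO-labelled library, a ratio of 0.976 (interval 0.868 to 1.10), and a value summed over the gene includes exons outside a deletion. Each direction below rests on the labels. Alb, the hepatocyte marker albumin, was at an FPKM of 14351 and 5534, so both libraries carried the labelled tissue. Of 7 hepatocyte markers, all expressed, 1 was at least 2-fold higher in the LTsc1KO-labelled library and 3 were lower. Among all expressed genes 35.6% were higher and 6.15% lower by that limit. Apob was at an FPKM of 212 and 885, and Cyp2e1 at 3382 and 568. The 10 listed skeletal muscle genes summed to an FPKM of 3679 in the wild-type-labelled library and 2.61 in the other. The median log2 ratio of all expressed genes was 0.70 and not 0, so ratios of the 8 genes are also given after median alignment. This scales the LTsc1KO-labelled library so that the median log2 FPKM ratio is 0 over genes that reached an FPKM of 1 in each library. The log2 ratios given here, for which 1 is added to each FPKM, then had a median of 0.07 over expressed genes. The log2 ratio of Tsc1 was -0.03 as deposited and -0.59 after median alignment. Where values are given in pairs, the wild-type-labelled library comes first.

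The inflammatory caspases Casp1, Casp4 and Casp12 had the largest differences among the 8 genes. They lie side by side on the plus strand of chromosome 9, within 74.5 kb (5298517 to 5373032, GRCm38). The 250 bases upstream of each RefSeq start are shown because these neighbours differed in the same direction. They are Casp1 at chr9:5298267-5298516, Casp4 at chr9:5308599-5308848 (the first of its 2 listed starts) and Casp12 at chr9:5345226-5345475, all on the plus strand of GRCm38.p6, with capitals for matches to TTCNNNGAA, the form of site that STAT factors bind.
Casp1: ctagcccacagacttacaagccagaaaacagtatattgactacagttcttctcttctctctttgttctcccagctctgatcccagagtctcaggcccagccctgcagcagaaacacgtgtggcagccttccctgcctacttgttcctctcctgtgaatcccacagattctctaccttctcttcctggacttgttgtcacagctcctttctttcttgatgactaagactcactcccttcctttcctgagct
Casp4: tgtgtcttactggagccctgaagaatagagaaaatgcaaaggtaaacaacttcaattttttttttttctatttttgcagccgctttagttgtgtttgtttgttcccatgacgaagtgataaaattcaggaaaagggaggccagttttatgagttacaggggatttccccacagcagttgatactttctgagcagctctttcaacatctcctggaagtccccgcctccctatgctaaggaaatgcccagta
Casp12: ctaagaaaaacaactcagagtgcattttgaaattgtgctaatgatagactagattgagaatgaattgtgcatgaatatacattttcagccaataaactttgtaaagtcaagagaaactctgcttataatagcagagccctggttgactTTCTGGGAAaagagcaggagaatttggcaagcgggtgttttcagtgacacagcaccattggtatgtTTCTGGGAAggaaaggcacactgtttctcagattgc

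Casp12 held 2 copies of TTCTGGGAA, from -102 to -94 and from -36 to -28 relative to the RefSeq start. Of 32851 promoters in the RefSeq table, 7.02% held at least 1 match to TTCNNNGAA in this window and 0.317% held at least 2; the motif reads the same on both strands. The other 6 members with a promoter entry had no match to it. None of the 7 members with an entry held the core of the interferon-stimulated response element (GAAA, any 2 bases, GAAA) on either strand, against 2.98% of all promoters. Gsdmd had no entry. A match describes letters only, and its use by a factor was not measured.

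Casp1 (ENSMUSG00000025888; chromosome 9, 5298517 to 5307265) encodes the caspase that matures interleukin-1 beta and interleukin-18 in canonical inflammasomes. Its FPKM was 0.502 (21 reads) in the wild-type-labelled library and 36.6 (1610 reads) in the LTsc1KO-labelled library. It was the lowest of the 8 genes in the first library and the second highest in the other. It was thus 72.9-fold higher in the latter (interval 47.5 to 118), with a log2 ratio of 4.65. Only 69 of the expressed genes had a higher log2 ratio, which put Casp1 at percentile 99.4.

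Casp4 (ENSMUSG00000033538; chromosome 9, 5308828 to 5336783), whose mouse product is also called caspase-11, is the sensor of cytosolic lipopolysaccharide in the non-canonical pathway. It stood at an FPKM of 3.54 (103 reads) in the wild-type-labelled library and 62.8 (1923 reads) in the other. The latter was the highest FPKM of any of the 8 genes in either library. The ratio was 17.8 (14.6 to 21.9), a log2 ratio of 3.81 at percentile 98.6.

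Casp12 (ENSMUSG00000025887; chromosome 9, 5345430 to 5373032) groups with the inflammatory caspases by sequence and has been linked to stress of the endoplasmic reticulum in mice. Its FPKM was 1.36 (68 reads) in the wild-type-labelled library and 34.1 (1799 reads) in the other. The ratio was 25.2 (19.8 to 32.6), a log2 ratio of 3.90 at percentile 98.8. The counting intervals of the Casp1 and Casp4 ratios did not overlap, while that of Casp12 overlapped the upper part of the Casp4 interval and did not reach that of Casp1. With the median ratio set to 0 the log2 ratios were 3.96 for Casp1, 3.11 for Casp4 and 3.21 for Casp12. Close copies can share reads, yet no stretch of 25 bases in the annotated transcripts of any of the 8 genes occurred in another of them. Casp4 shared 3.0% of such stretches with transcripts of other genes, Casp1 and Casp12 none.

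Levels summed over the 3 inflammatory caspases were an FPKM of 5.39 in the wild-type-labelled library and 134 in the LTsc1KO-labelled library. These 3 made up 15.7% of the summed FPKM of the 7 caspases described here in the first library and 66.7% in the second.

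**Figure D1:**
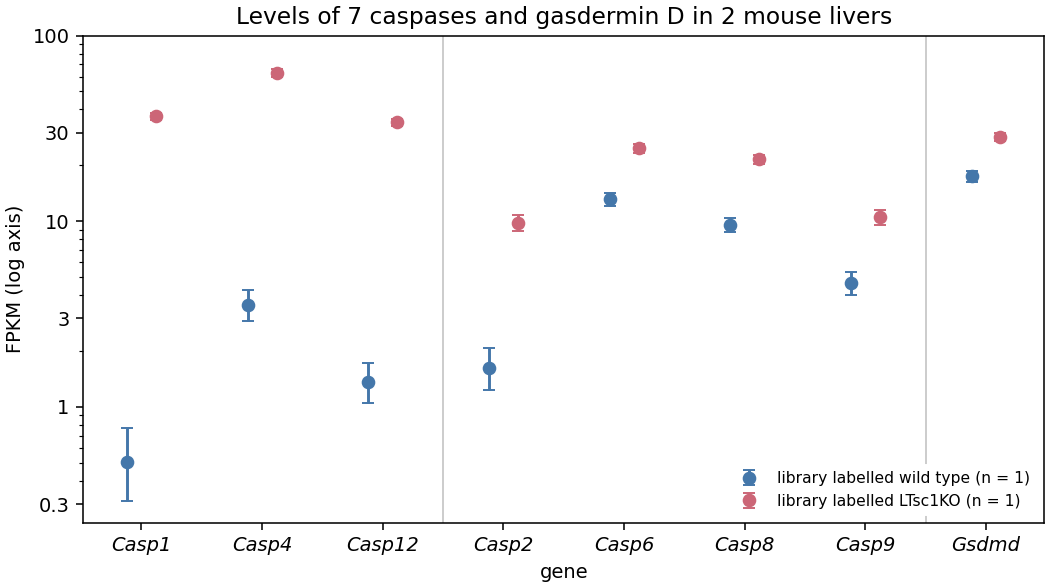
FPKM (log axis) of each gene in the wild-type-labelled library (blue) and the LTsc1KO-labelled library (red), 1 library each; bars are 95% exact Poisson intervals for counting error. Casp1, Casp4 and Casp12 lie at 0.502 to 3.54 in blue and at 34.1 to 62.8 in red, while Gsdmd is at 17.5 and 28.5.

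Gsdmd (ENSMUSG00000022575; chromosome 15, 75862327 to 75867408), the substrate that Casp1 and Casp4 cut to form the pore, differed little from the typical gene. Its FPKM was 17.5 (866 reads) in the wild-type-labelled library, the highest of the 8 there, and 28.5 (1485 reads) in the other, the fourth highest. The ratio was 1.63 (1.50 to 1.78) and the log2 ratio 0.68, at percentile 49.0 of expressed genes. With the median ratio set to 0 it was -0.01. In the wild-type-labelled library Gsdmd stood 34.8-fold above Casp1 and 4.94-fold above Casp4 in FPKM. In the other library Casp1 stood 1.29-fold and Casp4 2.21-fold above Gsdmd.

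Casp2 was the initiator with the largest difference. Casp2 (ENSMUSG00000029863; chromosome 6, 42264985 to 42282508) is activated on the PIDDosome, a platform that responds to DNA damage and extra centrosomes. Its FPKM was 1.62 (59 reads) in the wild-type-labelled library and 9.82 (376 reads) in the LTsc1KO-labelled library. The ratio was 6.06 (4.60 to 8.12), the log2 ratio 2.05 at percentile 91.6, or 1.41 with the median ratio set to 0. It was the lowest of the 8 in the second library, with Casp9 next to it.

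Casp8 and Casp9 had nearly the same ratio, close to that of many genes. Casp8 (ENSMUSG00000026029; chromosome 1, 58795374 to 58847503), the initiator of death receptor signalling, had an FPKM of 9.59 (534 reads) and 21.6 (1266 reads), a ratio of 2.26 (2.04 to 2.50). Casp9 (ENSMUSG00000028914; chromosome 4, 141793612 to 141815976), the initiator of the apoptosome, had 4.64 (203 reads) and 10.5 (482 reads), also a ratio of 2.26 (1.91 to 2.67). Their log2 ratios of 1.10 and 1.03, at percentiles 68.7 and 65.6, were 0.42 and 0.39 with the median ratio set to 0, below the 2-fold limit. Casp8 shared 11.2% of its 25-base stretches with other genes, and 94 of the 5197 exonic bases of Casp9 overlap Cela2a and Ctrc on the opposite strand.

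Casp6 (ENSMUSG00000027997; chromosome 3, 129901425 to 129914103), an executioner that cuts nuclear lamins, stood at an FPKM of 13.1 (634 reads) in the wild-type-labelled library and 24.7 (1258 reads) in the other. The ratio was 1.89 (1.71 to 2.08) and the log2 ratio 0.87 at percentile 58.3, or 0.19 with the median ratio set to 0. Casp2, Casp8, Casp9 and Casp6 together summed to an FPKM of 29.0 and 66.7.

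On the scale of log2(FPKM + 1), 6 of the 8 genes were higher by 2-fold or more in the LTsc1KO-labelled library and 0 were lower by as much. Among all expressed genes 35.6% were higher and 6.15% lower by that limit. With the median ratio set to 0 these counts were 4 of 8 (Casp1, Casp4, Casp12 and Casp2) and 0, where 15.6% and 12.7% of all genes passed. The median log2 ratio of the 8 was 1.57. Since the genes were chosen with this contrast in view, nothing is read from these counts.

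**Figure D2:**
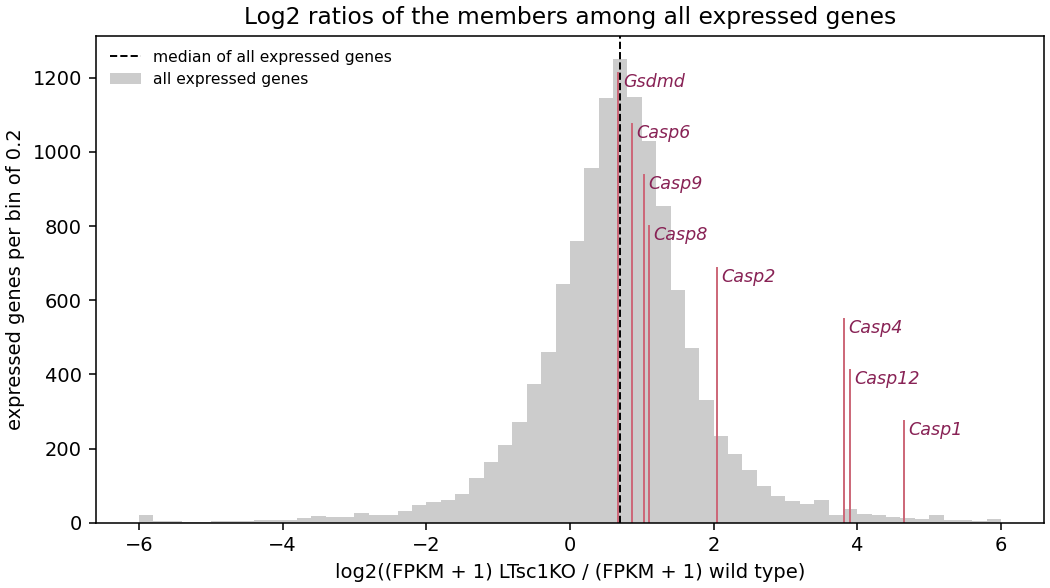
Number of expressed genes per bin of log2 ratio (grey, values beyond 6 in either direction placed in the end bins), with the 8 genes as red lines whose heights only separate the names. Gsdmd lies next to the dashed median of 0.70, and Casp4, Casp12 and Casp1 lie between 3.81 and 4.65.

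The order of levels differed between the libraries. In the wild-type-labelled library it ran Gsdmd, Casp6, Casp8, Casp9, Casp4, Casp2, Casp12 and Casp1. Of neighbours in that order, the ratio of Casp2 to Casp12 was 1.19 (0.828 to 1.72), the only one whose interval includes 1. Casp9 over Casp4 was 1.31 (1.03 to 1.68). In the LTsc1KO-labelled library it ran Casp4, Casp1, Casp12, Gsdmd, Casp6, Casp8, Casp9 and Casp2. There the ratio of Casp9 to Casp2 was 1.07 (0.932 to 1.23), again the only one between neighbours whose interval includes 1, and Casp1 over Casp12 was 1.07 (1.00 to 1.15). Gsdmd, Casp6, Casp8 and Casp9 kept their order among themselves.

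Partners of the inflammatory caspases were mostly low or little different. Of 15 inflammasome sensors and adaptors 10 were below an FPKM of 1 in both libraries, among them Pycard, the adaptor that links sensors to Casp1, at 0.688 (54 reads) and 0.630 (52 reads). Nlrp3, the sensor of membrane damage and crystals, had 1 and 13 reads, and Nlrc4, the partner of the NAIP proteins, 0 and 8. Of the 5 expressed, 1 was at least 2-fold higher and 1 lower (median log2 ratio 0.46). After median alignment 4 were expressed, the counts were 1 and 2 and the median was -0.76. The shares of all expressed genes past that limit, for this and the partner lists below, were 35.6% higher and 6.15% lower. After alignment those shares were 15.6% and 12.7%. Naip2, which detects a rod protein of bacterial secretion systems, was at an FPKM of 0.511 and 7.40, a ratio of 14.5 (11.3 to 18.9). Nlrp6, a sensor best known from the gut, had the highest FPKM of the list and was lower, at 85.2 and 38.8. Its log2 ratio was -1.12, or -1.81 after median alignment. The log2 ratio was -0.74 for Nlrp12 (aligned -1.32) and 0.46 for Nek7, a cofactor of Nlrp3 (aligned -0.21). For Aim2, a sensor of cytosolic DNA (11 and 40 reads), it was 0.71 (aligned 0.36). NAIP genes are close copies, and reads may be split among them.

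As deposited, the cytokine substrates of Casp1 had ratios whose intervals include 1. Il1b was at an FPKM of 1.15 (26 reads) and 1.60 (38 reads), a ratio of 1.39 (0.822 to 2.38). Il18 was at an FPKM of 11.6 and 10.0, a ratio of 0.863 (0.711 to 1.05). After median alignment the log2 ratio turned from 0.27 to -0.12 for Il1b and went from -0.19 to -0.83 for Il18. Il33, an alarmin of the same cytokine family, was at an FPKM of 5.98 and 4.08. Ninj1, which ruptures the membrane after pore formation, was abundant, at an FPKM of 178 and 320 (log2 ratio 0.84). Panx1, a channel that caspases open by cleavage, was the gene of this list at least 2-fold higher, at an FPKM of 0.444 and 11.0, a ratio of 24.8 (17.6 to 36.1). Of 5 expressed genes it was the 1 higher and 0 were lower (median log2 ratio 0.27); after median alignment the counts were 1 and 1 and the median -0.12.

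Regulators of the inflammatory caspases and of their cytokines went both ways. Of 11 measured 10 were expressed, 3 at least 2-fold higher and 1 lower (median log2 ratio 0.59); after median alignment the counts were 1 and 2. Serpinb1a, a serpin that restrains neutrophil proteases and has been reported to restrain inflammatory caspases, was at an FPKM of 1.03 and 44.1, a ratio of 42.7 (32.6 to 57.0). Card19 stood at a log2 ratio of 1.39, Il1rn, the interleukin-1 receptor antagonist, at 1.29, and Card6 at 0.99. Il18bp, which binds and neutralises interleukin-18, was lower, at an FPKM of 13.5 and 5.65 (log2 ratio -1.12). The guanylate-binding proteins Gbp2, Gbp3 and Gbp7, which help expose lipopolysaccharide to Casp4, had log2 ratios of 0.65, 0.30 and 0.20. After median alignment those were 0.17, -0.24 and -0.26. Irf1 and Irf2, transcription factors of the interferon response, had log2 ratios of 0.53 and -0.56, or -0.16 and -1.22 after median alignment.

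Genes listed for the Casp2 platform had lower log2 ratios than Casp2 itself. Those listed for the Casp9 platform lay on both sides of Casp9 (log2 ratio 1.03). For Casp2 the PIDDosome list had 0 of 3 genes past the 2-fold limit with the pseudocount of 1 (median log2 ratio 0.42, or -0.20 after median alignment). Without the pseudocount its scaffold Pidd1, at an FPKM of 0.897 and 2.43, had a ratio of 2.71 (2.03 to 3.65), against a log2 ratio of 0.85 with it. The adaptor Cradd was at an FPKM of 8.38 and 11.6 (log2 ratio 0.42). Madd, counted in this list but not a core part of the PIDDosome, had a log2 ratio of 0.39. For Casp9, 4 of 6 genes of the apoptosome and of mitochondrial release passed the 2-fold limit upward and 0 downward (median log2 ratio 1.21). Among all expressed genes the shares were 35.6% and 6.15%. After median alignment the counts were 1 and 0, against 15.6% and 12.7% of all expressed genes. Cycs, cytochrome c, had an FPKM of 62.7 and 228 (log2 ratio 1.85), and Apaf1, the scaffold, 0.638 and 2.91 (1.26). Htra2, Aifm1 and Diablo, whose products leave the mitochondria in apoptosis, had log2 ratios of 1.40, 1.16 and 0.49.

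For Casp8 the adaptor, the decoy and the receptor Fas had log2 ratios near 0 as deposited and below 0 after median alignment. Fadd, which docks Casp8 to receptors, was at an FPKM of 1.70 and 2.10 (log2 ratio 0.20, aligned -0.25). Cflar, its catalytically inactive relative that blocks it, was at an FPKM of 39.2 and 40.2 (log2 ratio 0.04, aligned -0.66), and Fas at 17.8 and 16.7 (-0.09, aligned -0.75). Of 11 expressed genes of death receptor signalling, 4 were at least 2-fold higher and 0 lower, with a median log2 ratio of 0.20; after median alignment the counts were 2 and 0 and the median -0.10. Tnfsf10, which encodes the ligand TRAIL, was at an FPKM of 0.671 and 7.87, and its receptor Tnfrsf10b, a known p53 target, at 0.124 (11 reads) and 4.27 (397 reads), a ratio of 34.3 (19.0 to 69.3). Ripk1, Traf2 and Cyld, which act on ubiquitin-dependent steps of this signalling, had log2 ratios of 1.37, 1.35 and 0.56. Bid, which Casp8 cuts to engage mitochondria, was at an FPKM of 6.57 and 41.2, a ratio of 6.27 (5.45 to 7.24).

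Inhibitors of apoptosis were at least 2-fold higher in 3 of 5 expressed cases and lower in 0 (median log2 ratio 1.48). Among all expressed genes the shares were 35.6% and 6.15%. After median alignment the counts were 1 and 0, against 15.6% and 12.7% of all expressed genes. Xiap, which binds Casp9 directly, was at an FPKM of 13.6 and 26.0 (log2 ratio 0.89). Birc5, survivin, whose main role is in mitosis, was at an FPKM of 0.335 and 7.92 (log2 ratio 2.74). Birc3, Birc6 and Birc2 had log2 ratios of 1.65, 1.48 and 0.61.

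Among 10 genes for nuclease and executioner substrates 6 passed the 2-fold limit upward and 0 downward (median log2 ratio 1.40). Among all expressed genes the shares were 35.6% and 6.15%. After median alignment the counts were 3 and 1, against 15.6% and 12.7% of all expressed genes. Gsn, the actin-severing gelsolin, was at an FPKM of 18.8 and 257 (log2 ratio 3.70). The log2 ratio was 1.98 for Lmnb1, a lamin, 1.63 for Add1, which links actin to spectrin, and 1.41 for Parp1, a DNA repair enzyme.

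Other routes of lytic death held 2 further genes with values to set beside Gsdmd. Gsdme, another pore-forming gasdermin, was at an FPKM of 5.30 and 15.0 (log2 ratio 1.35, or 0.69 with the median ratio set to 0), and the other 8 listed gasdermins were below an FPKM of 1 in both libraries. Mlkl, which punctures the membrane in necroptosis, was at an FPKM of 3.49 and 26.8, a ratio of 7.68 (6.38 to 9.30). Its activator Ripk3 had 4 and 14 reads, and Zbp1, a nucleic acid sensor upstream of Ripk3, had a log2 ratio of 0.64. Over all 10 lists of partners, 24 of 58 expressed genes (41.4%) were at least 2-fold higher and 2 (3.45%) lower, near the 35.6% and 6.15% of all expressed genes.

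**Figure D3:**
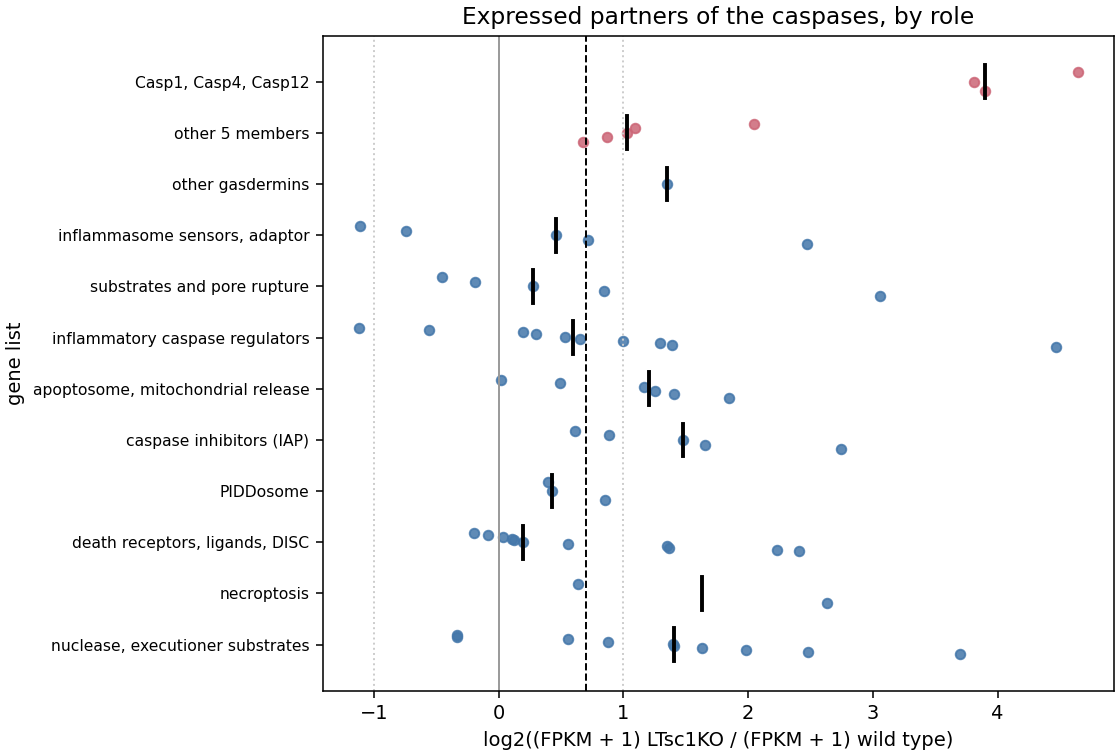
Log2 ratios of expressed genes by list, each point a gene; red points are the 8 genes, black ticks list medians, the dashed line the median of all expressed genes (0.70) and dotted lines the 2-fold limits. The inflammatory caspases lie at 3.81 or more, while the medians of the sensor, substrate and regulator lists lie between 0.27 and 0.59.

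Inflammatory caspases are abundant in macrophages and other leukocytes, so markers of other cells are set beside them. In bulk liver, more cells of a type and more RNA per cell cannot be told apart. The 14 Kupffer cell and macrophage markers summed to an FPKM of 119 in the wild-type-labelled library and 260 in the LTsc1KO-labelled library, a ratio of 2.20, against 24.8 for the summed inflammatory caspases. Of 12 expressed, 3 passed the 2-fold limit upward and 1 downward (median log2 ratio 0.79), against 35.6% and 6.15% of all expressed genes. After median alignment 11 were expressed, the counts were 1 and 2 and the median 0.09, against 15.6% and 12.7% of all. Of the 14, 0 were at an FPKM of 0 in either library. Clec4f, a marker of resident Kupffer cells, was at an FPKM of 13.5 and 11.7. Timd4 was at 0.577 and 0.502 and Adgre1 at 0.416 and 0.749. Cd14 was at 38.7 and 90.1 and Cd68, a lysosomal protein, at 1.32 and 52.3. In the LTsc1KO-labelled library Cd14 and Cd68 had the highest levels of the list. The ratio of Cd68 was 39.7 (28.4 to 57.2). Marco, the marker lower by 2-fold or more as deposited, was at 3.37 and 0.505. The 5 pan-leukocyte markers summed to an FPKM of 38.1 and 52.2, with Ptprc, the gene of CD45, at 0.918 and 2.14.

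Neutrophil markers were lower, with 4 of 7 expressed at least 2-fold lower and 0 higher (6 and 0 after median alignment). Of all expressed genes 35.6% were higher and 6.15% lower by that limit as deposited. After alignment the shares were 15.6% and 12.7%. The neutrophil markers summed to an FPKM of 2590 and 1276, most of it Lcn2, which hepatocytes also make. Markers of T and NK cells summed to an FPKM of 2.47 and 3.15, those of B and plasma cells to 17.1 and 7.21, and those of dendritic cells to 0.693 and 1.57. Cholangiocyte markers were at least 2-fold higher in 5 of 7 expressed cases and lower in 0. After median alignment 6 were expressed and the counts were 2 and 0. Krt19 was at 0.328 and 2.46 and Epcam at 0.316 and 2.34. The listed cholangiocyte markers had a sum of 48.4 and 638 that Spp1 dominates. Sinusoidal endothelial markers went both ways, with 3 of 5 expressed at least 2-fold higher and 0 lower as deposited. After median alignment 3 were expressed and 0 were higher. The listed endothelial markers summed to an FPKM of 21.4 and 43.6, most of it Stab2 and Stab1. The ratio was 0.618 for Pecam1, 0.534 for Kdr and 0.535 for Cdh5. Stellate cell markers went both ways too, with 2 of 6 expressed at least 2-fold higher and 2 lower. After median alignment 5 were expressed and the counts were 0 and 2. The listed stellate markers summed to an FPKM of 182 and 16.2, of which Des, also a muscle gene, made 152 in the first library. The ratio was 5.95 for Col1a1, 2.97 for Col3a1 and 2.28 for Acta2. It was below 1 for Dcn (0.192), Reln (0.578), Lrat (0.634) and Pdgfrb (0.640), the last 2 below an FPKM of 1 in both libraries. Erythroid markers summed to an FPKM of 579 and 56.2, most of it the globins Hba-a1 and Hbb-bs. Of 4 expressed, 2 were at least 2-fold lower and 0 higher. After median alignment 3 were expressed, with 3 lower and 0 higher. Slc4a1 went the other way as deposited, at 0.210 and 1.26. The part of any of these cells in the caspase values was not tested.

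**Figure D4:**
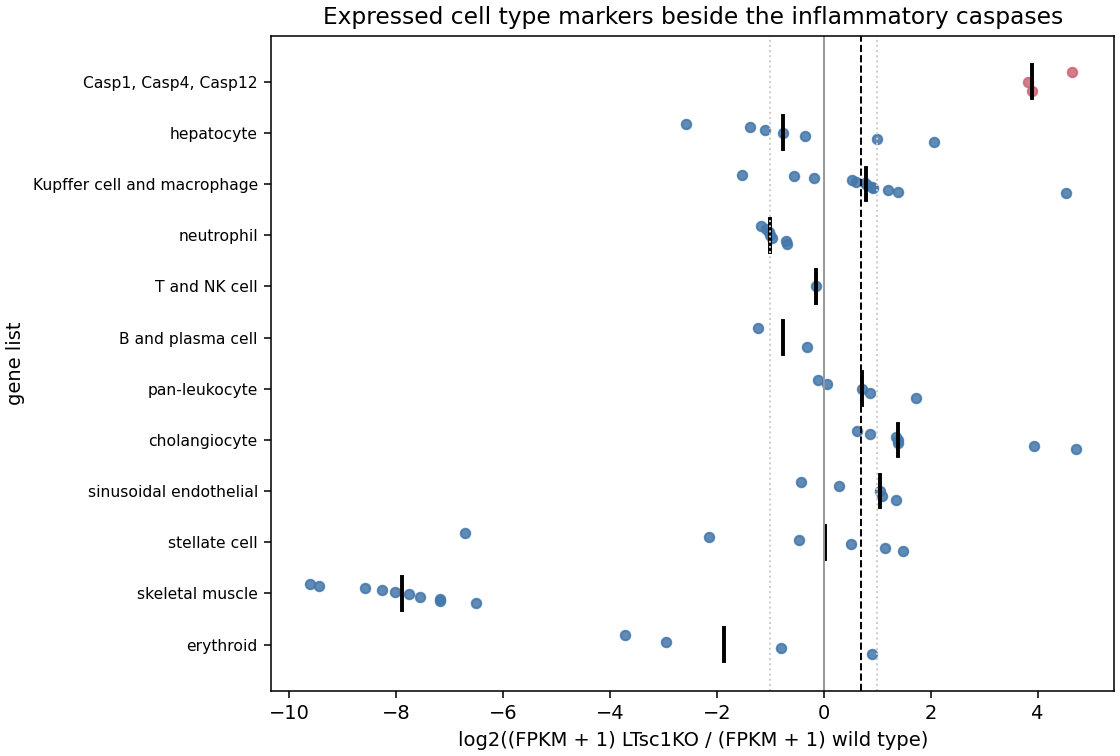
Log2 ratios of expressed cell type markers by list (blue, each point a gene) below those of Casp1, Casp4 and Casp12 (red); black ticks are medians, the dashed line the median of all expressed genes (0.70). Dendritic cell markers are left out because 0 of 6 were expressed; the macrophage median is 0.79 and the skeletal muscle median -7.88.

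Whether a gene passed the 2-fold limit depended on the pseudocount or scaling for Casp8, Casp9 and Casp6, but not for Casp1, Casp4, Casp12 and Casp2 under the settings run. Across 8 alternative settings, of which the 2 filters left single genes as they were, the log2 ratio of Casp1 ran from 2.92 to 5.93, that of Casp4 from 2.99 to 4.11 and that of Casp12 from 2.62 to 4.55. Casp2 ran from 1.16 to 2.53 and stayed past the 2-fold limit in all 8. Casp8 was past it in 4 of 8, Casp9 in 4 and Casp6 in 1. Gsdmd ran from -0.11 to 0.85, negative with the median ratio set to 0 and under upper quartile scaling.

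**Figure D5:**
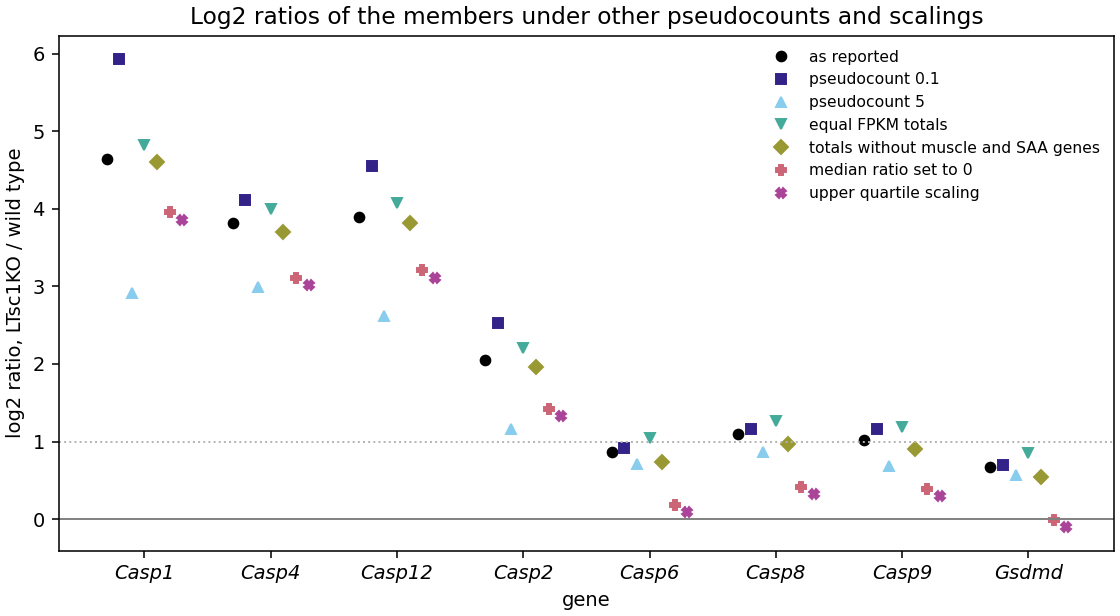
Log2 ratio of each gene as reported (black circle) and under 6 other pseudocounts or scalings (coloured symbols); the dotted line is the 2-fold limit. Casp1, Casp4 and Casp12 stay at 2.62 or more, and Gsdmd lies between -0.11 and 0.85.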

How the data were processed

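RNA sequencing was done on 2 mouse livers, 1 per genotype. The deposited values are FPKM, reads or fragments scaled by transcript length and library total, with a single value column in each table per the file headers. Per the submitters' processing notes, CASAVA 1.7 and Bowtie 0.12.2 were used at steps not specified, with the build mm8. Counting tool, annotation and strand were not given in the sources used here.

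Of 35275 Ensembl IDs, 34490 matched a symbol of GENCODE M21, which supplied the GRCm38 coordinates. Library totals of 27919645 and 29351163 reads were recovered from genes whose FPKM equals the worth of 1 read. The reads of each listed gene were then taken as whole numbers at a whole length shared by both libraries, the length nearest the annotated one, within a relative tolerance of 1e-07. All 8 members came out whole, 5 of them at the rounded annotated length. Whether reads or fragments were counted is unknown.

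Log2 ratios, LTsc1KO over wild type, were taken after a pseudocount of 1 was added to each FPKM, which understates the difference of low genes; folds are ratios of FPKM without it. Genes reaching an FPKM of 1 in either library counted as expressed, and an absolute log2 ratio of 1 counted as 2-fold. With 1 library per genotype there is no test. Intervals are 95% exact binomial (Clopper-Pearson) for folds and exact Poisson for levels, and cover counting error only.

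The members and lists were chosen with earlier results of these data known. Named genes were all members, up to 5 expressed genes per pathway list by absolute log2 ratio, and fixed direct partners; 1 list of genes outside the 8 is not reported here. Alternatives were 4 other scalings, a pseudocount of 0.1 or of 5, a minimum FPKM of 5 or none, and a 4-fold limit. Read recovery and the 2-fold call were tested on simulated data. Protein sequences were not used here; promoter sequences are those of RefSeq on GRCm38.p6. Software was Python 3.11.15 with matplotlib 3.10.9, scipy 1.17.1, pandas 2.3.3 and numpy 2.4.6.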

Additional observations from a re-analysis of the deposited data

How the results depend on the processing

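No paired analysis was possible because each genotype has 1 library, and for the same reason no replicate could be left out. The number of the 8 genes at least 2-fold higher was 6, and 4 to 7 over the 9 alternatives; 0 were lower under each. Their median log2 ratio of 1.57 was 1.85 with a pseudocount of 0.1, 1.02 with 5, 1.74 with equal totals, 1.46 with totals that leave out skeletal muscle and serum amyloid A genes, 0.92 with the median ratio set to 0 and 0.83 under upper quartile scaling. The 24 higher partner genes became 11 with the median ratio set to 0, 11 under upper quartile scaling and 9 at a 4-fold limit. The 2 lower ones became 1 with a pseudocount of 5, 6 with the median ratio set to 0, 7 under upper quartile scaling, and 0 with equal totals or a 4-fold limit. Over all genes, the share of higher among 2-fold genes was 85.3% as deposited, 55.1% with the median ratio set to 0 and 49.7% under upper quartile scaling. Depth limited Casp1 most, with 21 reads in the wild-type-labelled library.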

Other observations

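Genes around the cluster of Casp1, Casp4 and Casp12 were looked at after the values of these 3 were known. Within 1000 kb on either side GENCODE M21 places 6 other protein-coding genes with a value, of which 4 were expressed and 2 exceeded the 2-fold limit upward. Among all expressed genes 35.6% exceeded it upward, so nothing is read from 2 of 4. Pdgfd, a growth factor that binds PDGF receptor beta, was at an FPKM of 0.177 and 5.64 (log2 ratio 2.49), a ratio of 31.8 without the pseudocount, between those of Casp12 (25.2) and Casp1 (72.9). No counting interval was taken for this ratio. Pdgfd starts at 6168584, whereas the cluster ends at 5373032. Msantd4 was at 4.97 and 16.1 (1.52), Aasdhppt, which attaches the phosphopantetheine arm to fatty acid synthase, at 6.15 and 11.1 (0.76), and Kbtbd3 at 1.69 and 1.34 (-0.20). Gria4, a glutamate receptor gene and the nearest upstream neighbour, was listed at 0 and 0.00773.

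Gsdma, a gasdermin of skin and stomach, had 0 reads in the wild-type-labelled library, where 3 reads would be an FPKM of 0.0394, and 24 reads in the other.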
